A study of Mus musculus with 2 samples.

Results

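The genes described here encode the nuclear subunits of oxidative phosphorylation, together with the complex I assembly factors that share their name stem. They were chosen by name alone: all features whose symbol begins with Ndufa, Ndufb, Ndufc, Ndufs, Ndufv, Uqcr, Cox4 to Cox8 or Atp5, or is Sdha, Sdhb, Sdhc or Sdhd, without names that end in -ps or contain Rik. The rule found 100 of the 55357 features. They are 43 features named for complex I, 4 for complex II, 8 for complex III, 19 for complex IV and 18 for complex V, plus 8 complex I assembly factors (Ndufaf1 to Ndufaf8). The first 92 are summed below as the nuclear subunits.

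The data are 2 single-cell RNA libraries from mouse with colon as the tissue label, 1 labelled RUNX3 ko and 1 labelled RUNX3 wt, called the KO library and the WT library here. RUNX3 is a transcription factor of cytotoxic lymphocytes, and the series asks about its role in natural killer (NK) cell infiltration of colorectal tumours. The sources used here do not state the age or strain of the mice, how many animals each library pools, the allele or the kind of tumour. With 1 library per genotype, no difference between the libraries has a replicate check and no p-value is given, and every interval below is a 95% interval of the counting error alone.

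After filtering, 5257 KO and 8418 WT cells remained, with 56289257 and 77493016 unique molecular identifiers (UMIs, 1 per captured RNA molecule) and medians of 9427 and 8316.5 UMIs per cell. Runx3 was at 192.5 UMIs per 1000000 (CPM) in the KO library and 255.6 CPM in the WT library, so the KO library still held its RNA. Which part of the gene was deleted is not stated in the sources, so the level of its RNA checks no label. Of the kept KO cells, 1260 were male-type (a UMI of Ddx3y, Uty, Kdm5d or Eif2s3y and none of Xist), 2868 female-type (Xist alone), 443 had both and 686 neither. The WT library had 6698 male-type cells, 1 female-type cell, 2 with both and 1717 with neither. The sex types and the genotype labels therefore overlap only in male-type cells, and values within that type are given beside the summed levels, the lists and the class ratios. Of the deposited cell barcode sequences, 17 were listed in both libraries. Cells were assigned to classes by a gate on 8 marker genes per class, and no cell passed the epithelial gate, so the tissue label rests on no gated epithelial cell.

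Oxidative phosphorylation passes electrons from NADH through complex I, or from succinate through complex II, to complex III and on to oxygen at complex IV, and the proton gradient built on the way drives ATP synthesis at complex V. All but 13 of the subunits are encoded in the nucleus. The rest are read from mitochondrial DNA, so complexes I, III, IV and V need RNA from both genomes. Complex II is entirely nuclear and also catalyses a step of the tricarboxylic acid cycle.

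Of the 100 features, 94 had at least 50 UMIs over both libraries and are called measured. The 6 others were Cox7b2, Cox8b, Cox8c and Ndufb11b, which had no UMI in any kept cell, and Ndufs6b and Ndufa11b, with 3 and 2 UMIs in the KO library and 8 and 2 in the WT library. Cox8b is known as a muscle isoform, and Cox7b2 and Cox8c as testis isoforms, of complex IV subunits. A count of 0 allows up to 0.0533 CPM in the KO library and 0.0387 CPM in the WT library. Some rows need care. Ndufa11b, Ndufb4c, Ndufs6b and Cox6c2 are annotated as processed pseudogenes, and reads of such a copy and its parent gene can be split by the counting. The row called Ndufb1 (ENSMUSG00000113902, chromosome 12, 101968090 to 101977068, minus strand) is named Ndufb1-ps in GENCODE M21 and typed there as a long noncoding RNA of a bidirectional promoter. Atp5o has 2 rows that overlap on chromosome 16, ENSMUSG00000022956 at 211 CPM in the KO library and 214 CPM in the WT library, and ENSMUSG00000116933, a much longer span, at 12 and 9.32 CPM.

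A minority of the promoters held motifs that the naming rule did not use. RefSeq promoters (GRCm38.p6, the build called mm10) were matched by symbol for 77 of the 99 member symbols, as 82 promoters. The motif of nuclear respiratory factor 1 (NRF1, the letters GCGC, then any base, then TGCGC, searched on both strands of the 250 bases before the start) occurred in 18.3% of them, against 3.74% of all 32851 promoters of the same length. NRF1 is known for binding genes of the respiratory chain. The ETS motif CCGGAAG, which GABP factors recognise, occurred in 17.1% of the member promoters and in 6.91% of all promoters. The estrogen-related receptor motif AAGGTCA occurred in 6.1% and 4.08%, the hypoxia response core ACGTG in 20.7% and 16.6%, and the YY1 motif AAGATGGC in 1.22% and 1.56%. These matches are descriptions of letters, not binding sites, and the windows that carry them differ between members. The 3 promoters below are shown because Cox6a1 carries the NRF1 motif at a pair of places and the ETS motif once, Atp5k carries the NRF1 motif and has 1 of the 8 highest KO over WT ratios, and Ndufa4, with the highest ratio of all members, holds neither set of letters in this window. Capitals mark NRF1 and ETS matches, and each sequence runs 5′ to 3′ on the minus strand.
Cox6a1 promoter: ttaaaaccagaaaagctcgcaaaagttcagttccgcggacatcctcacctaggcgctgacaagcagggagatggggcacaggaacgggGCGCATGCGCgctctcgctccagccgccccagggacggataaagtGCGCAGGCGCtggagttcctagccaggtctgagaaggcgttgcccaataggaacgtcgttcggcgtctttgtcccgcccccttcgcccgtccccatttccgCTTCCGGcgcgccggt
Atp5k promoter: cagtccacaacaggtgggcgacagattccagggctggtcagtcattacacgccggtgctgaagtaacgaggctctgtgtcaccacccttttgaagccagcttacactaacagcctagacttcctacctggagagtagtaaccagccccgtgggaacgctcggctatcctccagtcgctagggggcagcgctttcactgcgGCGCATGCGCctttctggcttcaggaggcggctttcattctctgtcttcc
Ndufa4 promoter: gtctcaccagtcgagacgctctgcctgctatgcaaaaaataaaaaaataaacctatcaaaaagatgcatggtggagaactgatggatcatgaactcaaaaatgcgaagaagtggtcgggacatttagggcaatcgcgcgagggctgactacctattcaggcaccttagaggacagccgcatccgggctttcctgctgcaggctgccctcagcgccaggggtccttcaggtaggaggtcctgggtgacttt
The windows lie at chr5:115348959-115349208 for Cox6a1, chr5:108434400-108434649 for Atp5k and chr6:11907451-11907700 for Ndufa4.

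The summed level of the nuclear subunits differed far more between cell classes than between the libraries. It was highest of the 15 gated classes in osteoclast-gated cells and lowest in neutrophils, in each library. Osteoclast-gated cells (17 KO and 14 WT cells) had 46733 CPM in the KO library (interval 45932 to 47544) and 45124 CPM in the WT library (44145 to 46119). Osteoclasts are multinucleated cells of the macrophage lineage that resorb bone and are known for dense mitochondria. Mast cells or basophils followed at 19429 and 18190 CPM. Arg1-low macrophages, the class with most cells (1916 KO and 3071 WT), had 17181 and 16266 CPM, and Arg1-high macrophages, with at least 5 Arg1 UMIs per 10000, had 16652 and 15913 CPM.

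Among the lymphocytes, CD8 T cells had 17176 CPM in the KO library and 15924 CPM in the WT library, and NK cells had 16109 and 16279 CPM. Regulatory T cells had 14545 and 14486 CPM, and the other T cells 14900 and 14381 CPM. B cells were lower than all of these in both libraries, at 9896 and 11056 CPM over only 13 and 10 cells. Among the myeloid cells, monocytes had 16992 and 15124 CPM, conventional type 1 dendritic cells (cDC1) 16928 and 17089 CPM, and plasmacytoid dendritic cells (pDC) 16672 and 15080 CPM. Mature dendritic cells, marked by Ccr7 and Fscn1, had 12229 and 12070 CPM, below the other dendritic classes and without overlap of the intervals. Neutrophils, cells known for few mitochondria, had 6110 CPM over 76 KO cells and 7016 CPM over 11 WT cells, at median depths of 1890 and 1017 UMIs. Mesenchymal cells had 14941 and 14077 CPM. Many neighbours between regulatory T cells and Arg1-low macrophages in this order swap places between the libraries, and with 1 library per genotype their order cannot be set beyond the counting error.

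**Figure D1:**
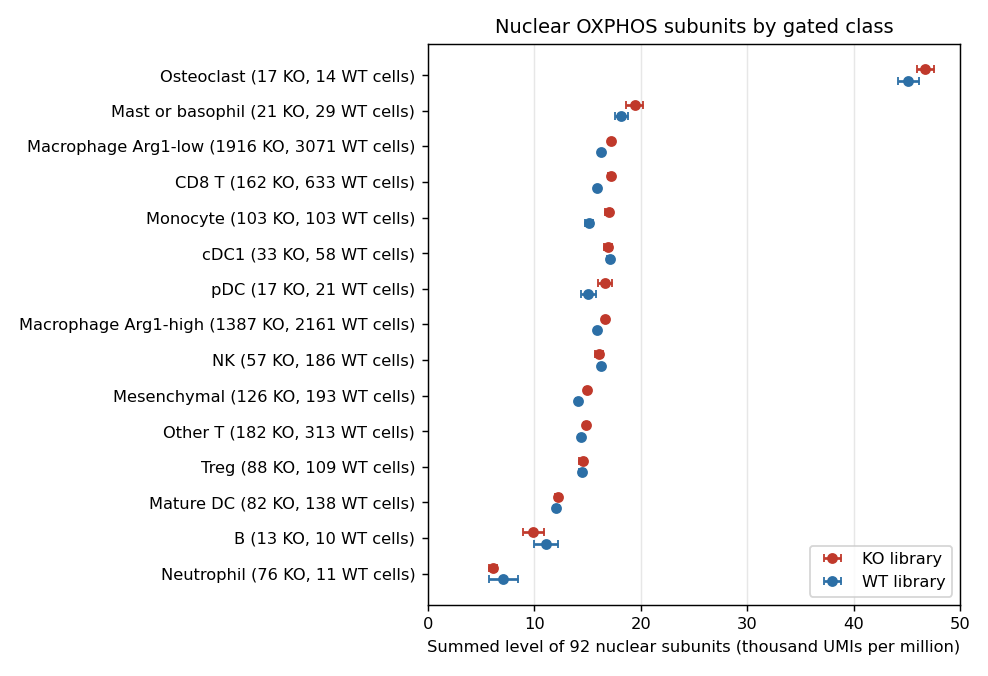
Summed level of the 92 nuclear subunits (CPM in units of 1000, horizontal axis) in each of 15 gated classes (rows, with cell numbers), as points with 95% counting intervals. KO points are drawn above WT points in each row. Osteoclast-gated cells stand at 46733 and 45124 CPM, mature dendritic cells at 12229 and 12070 CPM and neutrophils at 6110 and 7016 CPM.

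The high level in osteoclast-gated cells ran through all 5 complexes. Relative to Arg1-low macrophages, the summed level was 2.72 times as high in the KO library and 2.77 times as high in the WT library. Complex I stood at 13003 CPM in KO and 11914 CPM in WT osteoclast-gated cells, against 4997 and 4553 CPM in Arg1-low macrophages. Complex II stood at 1456 and 1324 CPM against 399 and 406 CPM, and complex III at 6211 and 5801 CPM against 1820 and 1730 CPM. Complex IV had 12920 and 12674 CPM against 5030 and 4846 CPM, and complex V 13143 and 13412 CPM against 4934 and 4731 CPM. Each complex was thus more than double its macrophage level in both libraries. The per-cell values did not come from a few cells: the quartiles of the KO osteoclast-gated cells were 36126 and 50790 CPM and those of the WT cells 38441 and 49492 CPM, against 13102 and 19573 CPM in KO and 13158 and 18337 CPM in WT Arg1-low macrophages.

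Member by member, 82 of the 90 features measured in this contrast, assembly factors included, were more than 1.3-fold higher in osteoclast-gated cells in both libraries, where 17.3% of all genes were. Only 3 were lower past that fold in both, where 30.0% of all genes were: Cox4i2, the assembly factor Ndufaf7 and the longer Atp5o row. Cox4i2 and the longer Atp5o row had no UMI in the osteoclast-gated cells of either library. Those cells held 277406 KO and 178950 WT UMIs. Cox4i2 was at only 2.55 and 2.86 CPM in Arg1-low macrophages, so its count of 0 says little. Of the 82 measured subunits, 79 were higher in each library. Their median log2 ratio was 1.42 in each, and over all 11052 genes it was -0.18 in the KO library and -0.13 in the WT library. Ndufa4, a small subunit first assigned to complex I and now known to sit in complex IV, had 926 CPM in KO and 525 CPM in WT osteoclast-gated cells, against 133 and 73.2 CPM in Arg1-low macrophages, a log2 ratio of 2.76 in both libraries. Ndufs7, a core subunit of complex I that carries an iron-sulfur cluster, had 573 and 486 CPM against 111 and 115 CPM. Uqcr10, a small complex III subunit, had 1381 and 1157 CPM against 292 and 260.5 CPM. Atp5g1 and Atp5g3 encode the same mature c subunit of the ATP synthase rotor and had 1215 and 926 CPM in KO cells and 1073 and 861 CPM in WT cells, against 321 and 231 CPM in KO and 312 and 203 CPM in WT Arg1-low macrophages.

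Other mitochondrial groups were higher in the same cells. The 13 subunits read from mitochondrial DNA summed to 9939 CPM in KO and 14110 CPM in WT osteoclast-gated cells, against 4423 and 5270 CPM in Arg1-low macrophages. The 16 genes of the tricarboxylic acid cycle and pyruvate dehydrogenase summed to 2952 and 3263 CPM, against 884 and 936 CPM, and mitochondrial ribosomal proteins to 7437 and 7840 CPM, against 3965 and 3868 CPM. Glycolysis genes were at 4802 and 6225 CPM, against 4939 and 6384 CPM, so that list did not stand apart. The 8 osteoclast markers of the gate summed to 29419 CPM in KO and 29433 CPM in WT osteoclast-gated cells, against 193 and 285 CPM in Arg1-low macrophages, while the macrophage list was at 1853 and 1950.3 CPM, against 10904 and 10805 CPM. Only 5.88% of the KO osteoclast-gated cells were male-type, against 78.6% of the WT cells, and the contrast is within each library.

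**Figure D2:**
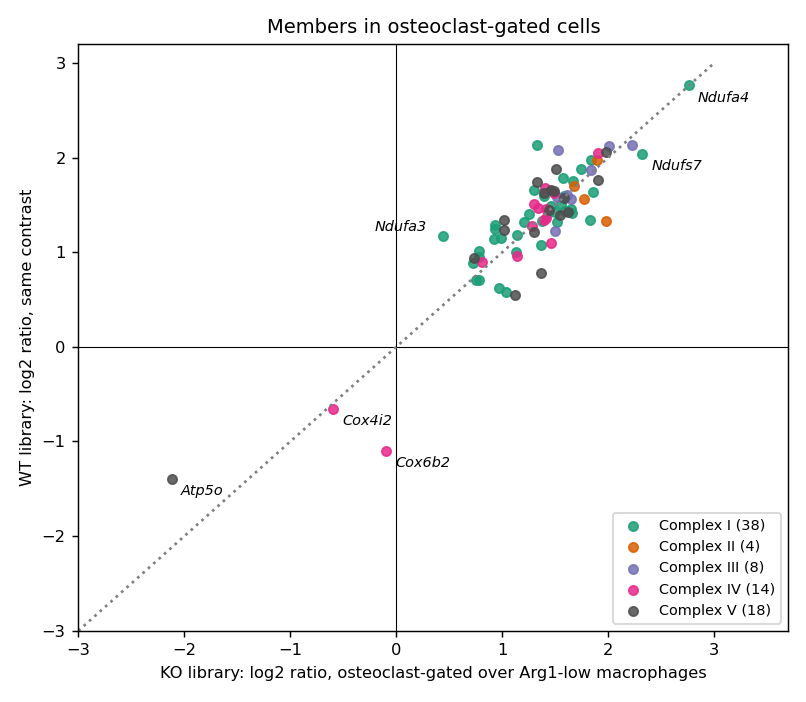
Log2 ratio of osteoclast-gated cells over Arg1-low macrophages for the 82 measured subunits, in the KO library (horizontal axis) and the WT library (vertical axis), 1 point per feature, coloured by complex. In each library 79 of 82 points lie above 0, Ndufa4 is at 2.76 in both, and the dotted line marks equal ratios. The 3 below 0 are Cox4i2, Cox6b2 and the longer Atp5o row, all at 16.7 CPM or less in Arg1-low macrophages.

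Mature dendritic cells showed the opposite over most members. Relative to Arg1-low macrophages, 48 of 90 members were more than 1.3-fold lower in both libraries, where 35.7% of all genes were, and 1 member was higher, where 15.3% were. The median over the subunits was -0.60 in the KO library and -0.57 in the WT library, and over all genes -0.34 and -0.23. The member that was higher was Cox7a2l, a factor that links complexes III and IV into supercomplexes, with 483 CPM in KO and 533 CPM in WT mature dendritic cells, against 339 and 398 CPM in Arg1-low macrophages. Ndufa12, an accessory complex I subunit, was at 14.9 and 21.2 CPM, against 58.5 and 51.9 CPM, and Ndufa5, another one, at 26.8 and 17.3 CPM, against 78.9 and 64.1 CPM. Complex II stood at 197 and 202 CPM, against 399 and 406 CPM. In mesenchymal cells 11 of 90 members were higher past the fold in both libraries and 23 were lower, where 43.7% and 22.0% of all genes were. The share of lower members was near that of all genes, and the share of higher members was smaller. Of the 82 measured subunits, 58 were lower in the KO library and 57 in the WT library, with medians of -0.20 and -0.14. Over all genes the medians were 0.27 and 0.31. Complex I summed to 5147 CPM in KO and 4797 CPM in WT mesenchymal cells, against 4997 and 4553 CPM in Arg1-low macrophages, while complex IV summed to 3877 and 3608 CPM, against 5030 and 4846 CPM.

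Within each complex some members varied little across the 11 classes in which both libraries held 20 or more cells, and others a great deal. For complex I the narrowest was Ndufs6, an accessory subunit of the NADH-oxidising module, which ranged from 87.9 to 131 CPM in the KO library and from 79.9 to 153 CPM in the WT library. The widest, Ndufa4, is counted here by its name and ranged from 38.7 to 580 CPM in KO and from 45.3 to 386 CPM in WT. For complex II the narrowest was Sdhd and the widest Sdhc, the small membrane anchors, and Sdhc ranged from 32.8 CPM in mature dendritic to 109 CPM in mesenchymal KO cells, and from 22.1 to 105.5 CPM in the same classes of the WT library. In complex III, Uqcrh, the hinge protein, spanned 0.87 on the log2 scale in the KO library and 0.85 in the WT library, and Uqcr11 spanned 1.47 and 1.33, lowest in mature dendritic cells in both. In complex V, Atp5e, the epsilon subunit, was narrowest with 519 to 770.5 CPM in KO and 406 to 646.5 CPM in WT, lowest in mesenchymal cells in both. The longer Atp5o row was widest, and it had no UMI in KO cDC1 or in the mast cells or basophils of either library. Among the assembly factors, Ndufaf2 was widest, at 61.5 CPM in KO and 66.2 CPM in WT mesenchymal cells and 6.4 and 12.5 CPM in monocytes, and Ndufaf8 was narrowest. In complex IV, Cox6b2 was widest, and Cox6c2, a pseudogene with 25 UMIs in the KO library and 34 in the WT library, was narrowest, at levels so low that the added 5 CPM sets its spread.

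Isoforms known from single tissues had their highest levels in few classes. Cox6a2, the heart and skeletal muscle isoform of Cox6a, had 1328 CPM in KO pDC (interval 1148 to 1528) and 798 CPM in WT pDC (647 to 973). In the 14 other gated classes with levels given here it was at 2.9 CPM or less in either library, and at 9.41 and 8.16 CPM in ungated cells. A UMI was found in 16 of 17 KO pDC (94.1%) and 16 of 21 WT pDC (76.2%), at median depths of 7871 and 5499 UMIs. No UMI was found in the 162 KO and 633 WT CD8 T cells, at median depths of 5791 and 4638 UMIs. After each cell was thinned to 1000 UMIs, the shares in pDC were 64.7% and 55.0%. The 17 and 21 pDC held 56.7% and 34.2% of all Cox6a2 UMIs of their libraries. The common isoform, Cox6a1, was at 226 CPM in KO pDC and 206 CPM in WT pDC, within its range in the other classes of at least 20 cells.

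Arg1-high macrophages had more of a pair of isoforms than Arg1-low macrophages. Ndufa4l2, a paralog of Ndufa4 known as a target of hypoxia-inducible factor, had 7.11 CPM in KO and 5.9 CPM in WT Arg1-high macrophages, against 0.193 CPM (4 UMIs) and 0.366 CPM (11 UMIs) in Arg1-low macrophages. These cells held 70.7% and 71.5% of its UMIs, and the UMIs came from 36 of 1387 KO cells (2.6%) and 36 of 2161 WT cells (1.67%). In Arg1-low macrophages, 3 of 1916 KO cells and 6 of 3071 WT cells had one. Mesenchymal cells also had Ndufa4l2, at 13 CPM in the KO library from 7 cells and at 3.52 CPM in the WT library from 8 cells. Cox4i2, the isoform of Cox4 known from lung and hypoxic cells, had 7.92 and 6.66 CPM in Arg1-high macrophages, against 2.55 and 2.86 CPM in Arg1-low macrophages, and 57.1% and 52.6% of its UMIs lay in the Arg1-high class. These 2 were the only members more than 1.3-fold higher in both libraries, of 93 measured, where 2.21% of all genes were. The share of higher members was thus no larger than that of all genes. The only member lower past 1.3-fold in both was Ndufa4, where 3.32% of all genes were lower. Ndufa4 was at 71.3 CPM in KO and 45.3 CPM in WT Arg1-high macrophages, against 133 and 73.2 CPM in Arg1-low macrophages. Glycolysis genes summed to 9206 and 10905 CPM in the Arg1-high class, against 4939 and 6384 CPM in the Arg1-low class, in the same direction as Ndufa4l2.

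Cox6b2, known as a testis isoform, was highest in mast cells or basophils, at 99.4 CPM in the KO library (51.4 to 174, from 12 UMIs) and 58.1 CPM in the WT library (29.0 to 104, from 11 UMIs). In Arg1-low macrophages it was at 8.05 and 5.69 CPM. Cox7a1, the heart and muscle isoform of Cox7a, was at 36.0 CPM in KO and 33.5 CPM in WT osteoclast-gated cells, from 10 and 6 UMIs. It was at 9.19 and 6.92 CPM in Arg1-high macrophages, against 5.98 and 4.32 CPM in Arg1-low macrophages. Of the common partners, Cox4i1 lay between 728 and 1066 CPM in the 11 compared classes of the KO library. In those of the WT library it lay between 782 and 1064 CPM. Outside them Cox4i1 was at 2689 CPM in KO and 2906 CPM in WT osteoclast-gated cells, and at 320 and 540 CPM in neutrophils. Cox7a2 was at 995 and 1090 CPM in osteoclast-gated cells, against 373 and 337 CPM in Arg1-low macrophages. The third c subunit gene, Atp5g2, was at 11.6 CPM over all KO cells and 15.0 CPM over all WT cells. The ATP synthase inhibitor Atpif1, which the symbol rule does not take, was at 369 CPM over all KO and 315 CPM over all WT cells, and at 701 and 590 CPM in cDC1, against 142 and 145 CPM in NK cells.

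**Figure D3:**
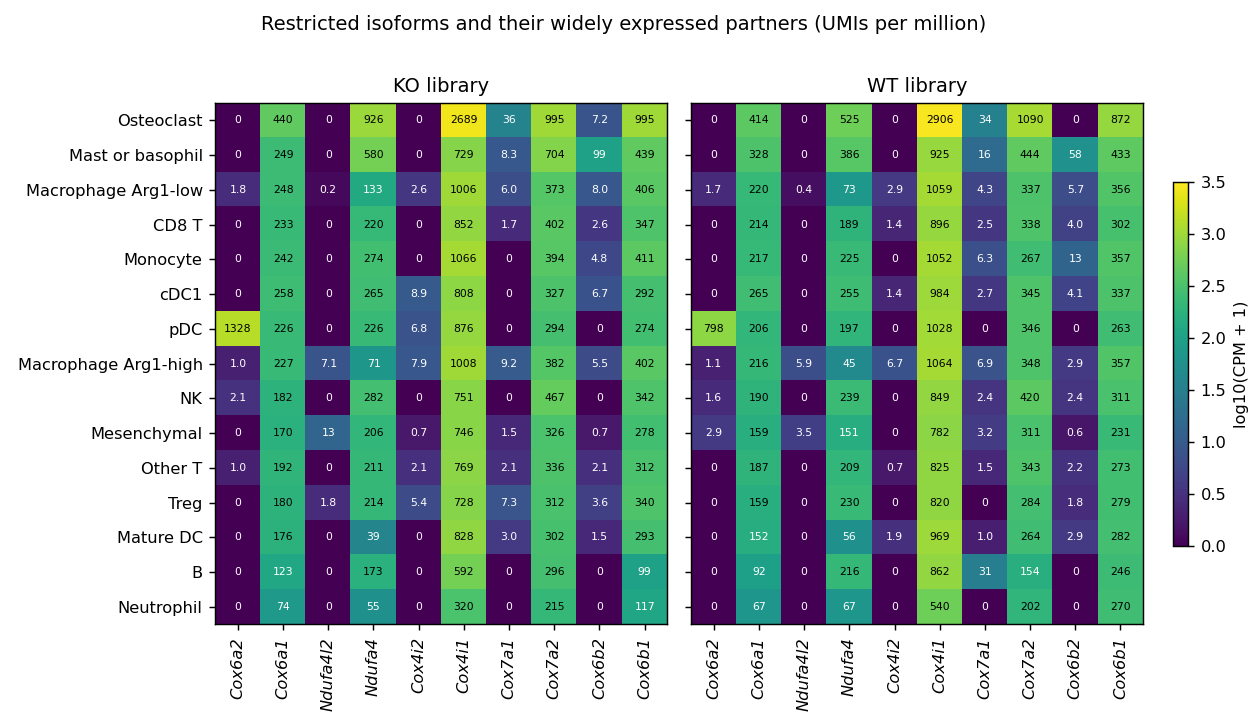
Levels (CPM, printed in each cell and coloured as log10 of CPM plus 1) of 5 restricted isoforms and their widely expressed partners, by gated class (rows), with the KO library on the left and the WT library on the right. Cox6a2 stands out in pDC at 1328 CPM in KO and 798 CPM in WT, while Cox6a1 stays within 67 to 440 CPM in every class drawn.

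Between the libraries, the nuclear subunits as a whole differed little. Over all cells they summed to 16669 CPM in the KO library and 15854 CPM in the WT library, a log2 ratio of 0.072 and a ratio of 1.05 (1.049 to 1.054). Complex I stood at 4885 CPM in KO and 4535 CPM in WT cells (log2 ratio 0.11), and complex III at 1780 and 1692 CPM (log2 ratio 0.073). Complex IV had 4886 and 4685 CPM, complex V 4746 and 4563 CPM, and complex II 373 and 379 CPM, with log2 ratios of 0.06, 0.057 and -0.025. Of the 94 measured members, 60 lay above a log2 ratio of 0, with a median of 0.075, whereas 45.1% of all 16387 measured genes did, with a median of -0.014. Past 1.3-fold, 4 members were higher in the KO library, where 2.47% of all genes were, and none was lower, where 2.58% were.

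The 4 members past 1.3-fold were 3 genes of small subunits or associated proteins and the Ndufb1 row. Ndufa4 (chromosome 6, 11900292 to 11907497, minus strand) had 137 CPM in the KO library and 93.8 CPM in the WT library, a log2 ratio of 0.53. The row called Ndufb1, typed in GENCODE M21 as a long noncoding RNA, had 214 and 153 CPM, a log2 ratio of 0.47. Ndufa1, encoded on the X chromosome (37187588 to 37191163, minus strand) and needed for assembly of the complex I membrane arm, had 112 and 82.4 CPM, a log2 ratio of 0.42. Atp5mpl, a small protein associated with the ATP synthase (chromosome 12, 111961375 to 111966977, minus strand), had 225 and 170.5 CPM, a log2 ratio of 0.39. Next below the fold came Uqcrb, a small complex III subunit at the ubiquinone site, with 160.5 and 123 CPM (0.37), Atp5k with 179 and 138 CPM (0.37), Cox6a2 with 6.08 and 3.66 CPM (0.35) and Atp5md with 219 and 171 CPM (0.35). Atp5k and Atp5md encode small membrane subunits that help ATP synthase form dimers. With the gated classes weighted alike, a setting without pDC, the log2 ratio of Cox6a2 was -0.030.

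The lowest members included large catalytic or structural subunits and also members with short coding sequences. Uqcrc2 and Uqcrc1, the core proteins of complex III, had 70.1 and 98.9 CPM in the KO library and 85.2 and 114 CPM in the WT library, log2 ratios of -0.26 and -0.20. Atp5b, the catalytic beta subunit of the ATP synthase, had 425 and 481.5 CPM (-0.18), and Atp5d, its delta subunit, 309 and 344 CPM (-0.15). Also among the lowest were Atp5g2 at 11.6 and 15.0 CPM (-0.27), Cox7a2l at 330 and 381 CPM (-0.20) and the assembly factor Ndufaf6 at 9.34 and 11 CPM (-0.15). None of these passed 1.3-fold.

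Core subunits and the other members of the same complex mostly lay on different sides of 0. Of the 7 core subunits of complex I, 1 lay above 0, with a median log2 ratio of -0.099. Of the 33 other measured features named for complex I, 28 lay above 0, with a median of 0.13. These 33 were taken by name and include Ndufa4, its paralog Ndufa4l2, the Ndufb1 row and the pseudogene Ndufb4c. In complex III, 0 of 3 (the Rieske protein Uqcrfs1 and both core proteins) and 4 of 5 others lay above 0, with medians of -0.20 and 0.14. In the F1 head of complex V, 1 of 5 lay above 0, against 9 of 13 others, with medians of -0.14 and 0.075. In male-type cells the medians were -0.19 and 0.11 in complex I, -0.34 and 0.12 in complex III and -0.15 and 0.073 in complex V. The 1 F1 member above 0 was Atp5e, at 692 CPM in the KO library and 586 CPM in the WT library. In complex II the log2 ratios of Sdha, Sdhb, Sdhc and Sdhd were -0.050, -0.026, -0.015 and 0.00051. Core subunits are also longer: the median transcript length was 1623 bases for the complex I core and 763 bases for the others, 1653 and 535 bases in complex III, and 1410 and 731 bases in complex V.

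The ratio between the libraries followed length across the members. Over 83 measured subunits with an annotated coding sequence, Spearman's rank correlation of the log2 ratio with coding length was -0.77, and with transcript length -0.53. Over 13047 other genes it was -0.096 and -0.054. The other genes were not matched to the subunits in level or length. These correlations are across genes of the same 2 libraries, and genes are not replicates. With transcripts of up to 600 bases, 19 of 20 subunits lay above 0, with a median of 0.17, and of 183 other genes of that length 137 did, with a median of 0.10. Between 1500 and 3000 bases, 3 of 15 subunits lay above 0, with a median of -0.099, and 1947 of 4508 other genes did, with a median of -0.021. The shortest other genes thus lay on the same side as the shortest subunits. Members that departed from the trend included Cox7a2l and Atp5g2, short and low, with coding lengths of 333 and 438 bases. Another was Ndufv3, at a log2 ratio of 0.08 with 1404 bases. How far length and the place of a subunit in its complex each move with the ratio cannot be told apart here.

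**Figure D4:**
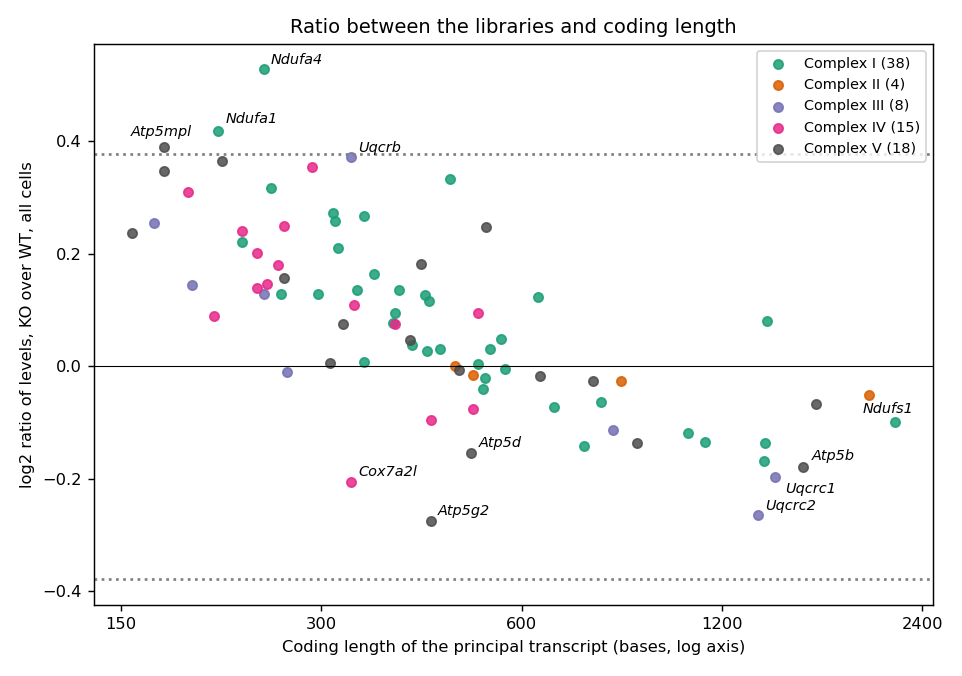
Log2 ratio of KO over WT over all cells (vertical axis) against the coding length of the gene's principal transcript (bases, log axis) for 83 measured subunits, coloured by complex. Dotted lines mark 1.3-fold, and the Ndufb1 row has no annotated coding length and is not drawn. The points run from Ndufa4 at 0.53 and Ndufa1 at 0.42 among short genes to Uqcrc2 at -0.26 and Ndufs1 at -0.099 among long ones.

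For the subunits, the correlation with coding length had the same sign in each of the 11 compared classes. It lay between -0.31 in monocytes and -0.76 in Arg1-high macrophages, over 45 to 82 subunits a class. Among other genes it lay between -0.32 in mast cells or basophils and 0.042 in cDC1. In monocytes it was -0.24 among other genes, not far from that of the subunits. With transcript length, monocytes had -0.18 for the subunits and -0.20 for other genes, so the subunits did not stand apart there. In male-type cells of both libraries, the correlation with transcript length was -0.51 for the subunits and -0.11 for other genes. The log2 ratio of the summed subunits between the male-type cells was 0.053, and it was 0.076 for complex I, -0.087 for complex II, 0.047 for complex III, 0.07 for complex IV and 0.027 for complex V.

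Subunits read from mitochondrial DNA went the other way from the nuclear ones. Their 13 genes summed to 4156 CPM in the KO library and 5054 CPM in the WT library, a log2 ratio of -0.28. Of the 13, 8 lay below 0, and 5 were lower past 1.3-fold, among them mt-Nd1, a core membrane subunit of complex I (811 and 1098 CPM, -0.44), mt-Nd2 (323 and 422 CPM, -0.38) and mt-Nd3 (11.8 and 18.8 CPM, -0.50). Cytochrome b of complex III, mt-Cytb, had 1549 and 1951 CPM (-0.33). Higher past the fold were mt-Atp8 (23.9 and 15.5 CPM, 0.49) and mt-Nd4l (3.46 and 1.07 CPM, 0.48), and mt-Co1, the catalytic subunit of complex IV, was at 552 and 502 CPM (0.14). Both mitochondrial ribosomal RNAs were higher in the KO library, with log2 ratios of 0.23 for mt-Rnr1 and 0.11 for mt-Rnr2. Mitochondrial genes made up 0.482% of the KO and 0.566% of the WT UMIs of kept cells, and 61 KO barcodes and no WT barcode had been left out for more than 25%. Without that limit the log2 ratio of the nuclear sum was 0.072. Over 14 alternative settings, this one included, the log2 ratio of the sum read from mitochondrial DNA lay between -0.328 and -0.205. The summed subunits read from mitochondrial DNA were lower in the KO library in all 11 classes, from -0.011 in cDC1 to -0.52 in regulatory T cells, and in 9 of them the counting interval of the ratio lay below 1. In male-type cells over all classes the log2 ratio of their sum was -0.33.

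Neighbouring pathways had medians on both sides of 0. Of 16 genes of the tricarboxylic acid cycle and pyruvate dehydrogenase, 3 lay above 0 (median -0.077), and of 14 measured glycolysis genes 1 did (median -0.16), with Gapdh at 1860 CPM in the KO library and 2355 CPM in the WT library. Of 77 mitochondrial ribosomal protein genes, 29 lay above 0 (median -0.042), and of 31 electron carriers and assembly factors 10 did (median -0.054), with Cox17, a short copper chaperone of complex IV, highest at 0.42. Of 14 measured regulators of mitochondrial biogenesis, 8 lay above 0 (median 0.033). Among them Nrf1 was at 64.5 CPM in the KO library and 81.2 CPM in the WT library (-0.31), Ppargc1b at 15.8 and 21.1 CPM (-0.33), and Myc at 27.8 and 20.8 CPM (0.35). Past 1.3-fold, the tricarboxylic acid cycle, glycolysis, mitochondrial ribosome and regulator lists held no gene in either direction, and the carriers and assembly factors held 1 in each. In male-type cells of both libraries the median was -0.11 for the tricarboxylic acid cycle, -0.10 for the carriers and assembly factors, -0.097 for the mitochondrial ribosomal proteins and -0.11 for the regulators. Glycolysis turned round there: 9 of 14 genes lay above 0, with a median of 0.083.

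By class, the summed nuclear subunits were higher in the KO library in 9 of 11 compared classes, and in 7 of them the counting interval of the ratio lay above 1. Monocytes had the largest log2 ratio, 0.17 (16992 CPM in 103 KO cells and 15124 CPM in 103 WT cells), and CD8 T cells followed with 0.11. NK cells had the lowest, -0.015 (16109 CPM in 57 KO cells and 16279 CPM in 186 WT cells), a ratio with an interval from 0.964 to 1.02. In male-type cells alone, 8 of the 11 classes lay above 0 and in 5 the interval lay above 1. Several classes moved there. Arg1-high macrophages were at 0.0051 in male-type cells (429 KO and 1775 WT cells), against 0.066 over all cells, and regulatory T cells at -0.061 (26 KO and 90 WT cells), against 0.0059. Mesenchymal cells were at 0.40 on 5 KO and 22 WT male-type cells, against 0.086, and mast cells or basophils at 0.32 on 3 and 19, against 0.095. CD8 T cells were at 0.16, and monocytes and Arg1-low macrophages at 0.15 and 0.093. Only 3.97% of the KO and 11.4% of the WT mesenchymal cells were male-type, against 24.0% and 79.6% of all cells. The male-type value of mesenchymal cells thus rests on a small part of that class. Over 13 settings, regulatory T cells kept the sign of their ratio in 8. Complex III was higher in all 11 classes, by a log2 ratio of only 0.015 in cDC1, and its interval lay above 1 in 5 of them. Complex II was lower in 10 of 11, but its interval lay below 1 only in NK cells, regulatory T cells and mast cells or basophils. In NK cells complex V was at 4503 CPM in the KO library and 4816 CPM in the WT library, a log2 ratio of -0.097 with a ratio interval from 0.890 to 0.983, and complex I was at 4808 and 4816 CPM.

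**Figure D5:**
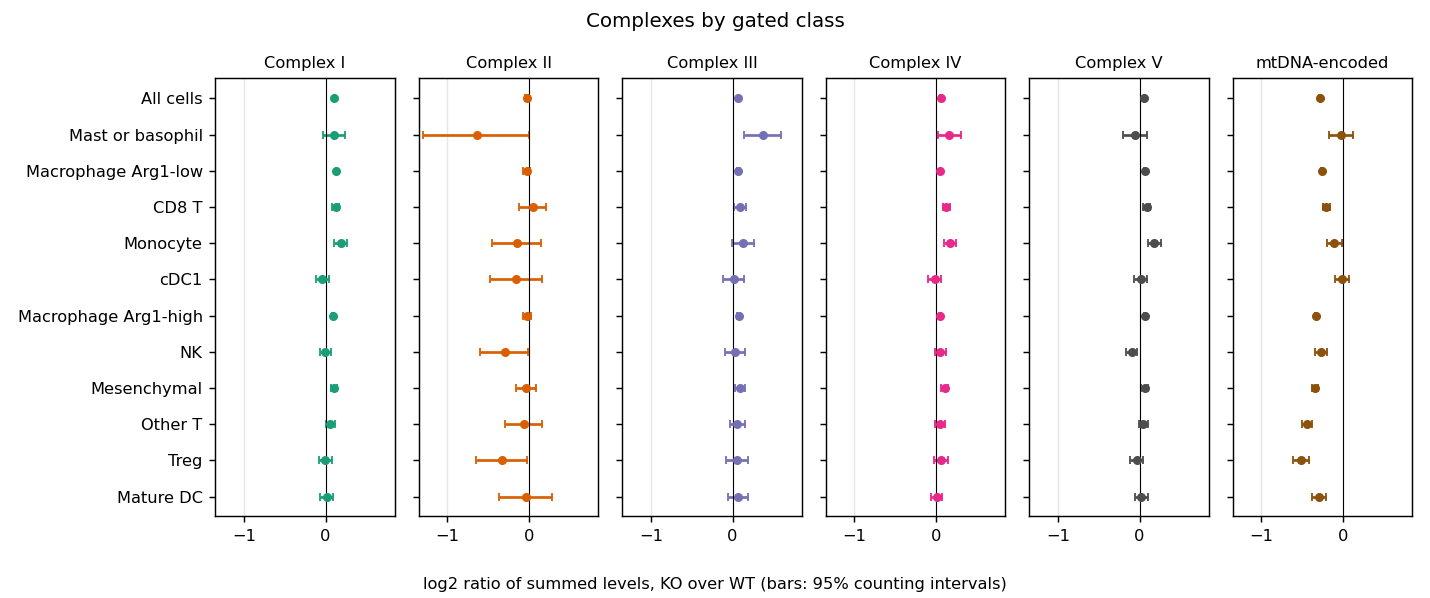
Log2 ratio of summed levels, KO over WT, for each complex and for the subunits read from mitochondrial DNA (panels), over all cells and in the 11 compared classes (rows), with 95% counting intervals. Complex III lies above 0 in all 11 classes, with an interval clear of 0 in 5. The panel of the subunits read from mitochondrial DNA lies below 0 in all 11, down to -0.52 in regulatory T cells, with an interval clear of 0 in 9.

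Among single members, the highest and lowest ratios differed between classes. In macrophages, which hold most cells, 4 of 92 measured members were higher past 1.3-fold in the Arg1-high class, where 3.19% of all genes were, and 8 of 92 in the Arg1-low class, where 3.93% were. None was lower past it in either class, where 3.52% and 3.6% were. Ndufa4 was the highest in both, with 71.3 CPM in KO and 45.3 CPM in WT Arg1-high macrophages (0.60) and 133 and 73.2 CPM in Arg1-low macrophages (0.82). It was followed by the Ndufb1 row in the Arg1-high class (222 and 163 CPM, 0.44) and by the longer Atp5o row in the Arg1-low class (16.7 and 8.15 CPM, 0.72). The lowest were Atp5g2 (10.9 and 15.2 CPM, -0.34) and Uqcrc2 (64.3 and 75.8 CPM, -0.22) in the Arg1-high class, and Uqcrc1 (102 and 122 CPM, -0.25) and Uqcrc2 (68.1 and 81.9 CPM, -0.25) in the Arg1-low class.

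In CD8 T cells 13 of 86 members were higher past 1.3-fold and 2 lower, where 8.0% and 11.1% of all genes were. They were led by the Ndufb1 row (208 CPM in KO and 123 CPM in WT cells, 0.73) and Ndufa1 (129 and 83.3 CPM, 0.60), and the 2 lower ones were Ndufs1 (24.9 and 41.8 CPM, -0.65) and Uqcrc2 (75.5 and 116 CPM, -0.58). Ndufs1 is the largest core subunit of complex I. In monocytes 9 of 72 were higher and 3 lower, where 14.7% and 22.9% were, so the share of higher members was no larger than that of all genes. Ndufa1 led there with 136 and 62.6 CPM (1.06), and the Ndufb1 row followed with 391 and 223 CPM (0.79), while Sdhb (120 and 184 CPM, -0.59) and Uqcrc1 (97.6 and 134 CPM, -0.43) were lowest. Mesenchymal cells had 7 of 87 members higher and 3 lower, where 4.59% and 8.56% were. Their highest were Atp5mpl (149 and 97.2 CPM, 0.60) and Ndufa3 (74.5 and 48.3 CPM, 0.58), and their lowest Ndufaf5 (7.41 and 13.7 CPM, -0.59) and Atp5g2 (11.5 and 19.2 CPM, -0.55).

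In the smaller lymphoid classes the counts of members were near or below those of all genes. NK cells had 5 of 80 members higher and 4 lower, where 10.4% and 14.0% of all genes were. Ndufaf7 (46.7 CPM in KO and 23.7 CPM in WT cells, 0.85) and Atp5md (252.5 and 160 CPM, 0.65) were highest, and Sdhd (38.2 and 62.4 CPM, -0.64) and Ndufa12 (40.3 and 65.6 CPM, -0.64) lowest. Regulatory T cells had 5 of 74 members in each direction, where 11.1% and 15.2% were, from Ndufa1 (107 and 66.1 CPM, 0.66) and Ndufb3 (134 and 89.3 CPM, 0.56) to Ndufs7 (69.0 and 109 CPM, -0.62) and Sdhb (107 and 171 CPM, -0.65). The other T cells had 8 of 78 higher and 3 lower, where 8.96% and 14.4% were. Atp5md (273 and 169 CPM, 0.67) and Ndufa1 (130 and 80.9 CPM, 0.65) led there, and Ndufv2 (63.8 and 86.1 CPM, -0.40) and Ndufaf2 (18.5 and 28.5 CPM, -0.51) were lowest.

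The dendritic and mast cell classes rest on fewer cells. The cDC1 had 7 of 76 members in each direction, where 13.2% and 15.1% of all genes were. Atp5k (162 CPM in KO and 104 CPM in WT cells, 0.62) and Cox7b (443 and 291.5 CPM, 0.59) were highest, and Ndufv1 (33.4 and 60.2 CPM, -0.76) and Ndufv2 (49.0 and 107 CPM, -1.05), which together form the NADH-binding tip of complex I, lowest. Mature dendritic cells had 5 of 71 in each direction, where 9.89% and 19.3% were, with Ndufaf8 (47.7 and 26.9 CPM, 0.72) and Ndufab1, the mitochondrial acyl carrier protein (59.6 and 34.6 CPM, 0.70), highest. Ndufv2 was among the lowest in them (50.6 and 82.8 CPM, -0.66). In mast cells or basophils 15 of 46 were higher and 9 lower, where 18.8% and 24.3% were, over 21 KO and 29 WT cells. Atp5md (257 and 143 CPM, 0.83) and Ndufa6 (290 and 169 CPM, 0.76) were highest, and Atp5a1 (124 and 238 CPM, -0.91) and the shorter Atp5o row (149 and 285 CPM, -0.91) lowest, on 15 to 54 UMIs each.

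Among the members past the fold, Ndufa4 differed most between the sex types of the KO library. Ndufa4 was at 155 CPM in KO female-type cells and 106 CPM in KO male-type cells, against 91.2 CPM in WT male-type cells. In male-type cells alone its log2 ratio was 0.21, and with the gated classes weighted alike it was 0.27, both short of 1.3-fold (0.38). The Ndufb1 row was at 216 CPM in KO female-type and 227 CPM in KO male-type cells, against 155 CPM in WT male-type cells, and Atp5mpl at 233 and 222 CPM, against 173 CPM. The log2 ratios in male-type cells were 0.53 for the Ndufb1 row and 0.35 for Atp5mpl, the second short of 1.3-fold.

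Of the members, 3 are X-linked. Ndufa1 was at 113 CPM in KO female-type and 115 CPM in KO male-type cells, against 83.0 CPM in WT male-type cells, and its log2 ratio was 0.42 for the KO female-type and 0.45 for the KO male-type cells. Ndufb11, a complex I membrane subunit, was at 197 and 179 CPM, against 184 CPM. Cox7b, a small complex IV subunit, was at 296 and 293 CPM, against 262 CPM. Without the X-linked genes the log2 ratio of the summed subunits in male-type cells was 0.05.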

How the data were processed

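Single-cell libraries were analysed from the deposited UMI counts, raw counts per gene and cell barcode made by the authors with Cell Ranger 8.0.1, per the file headers; mm10 and Seurat 3 are named in the submitters' processing notes. The sources do not state how cells were called or filtered before deposit. All 2 libraries were used, 1 per genotype label.

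Cells with at least 500 UMIs, 200 genes and at most 25% mitochondrial UMIs were kept. Scrublet (scanpy 1.11.5) marked 0.0181% of KO and 0% of WT barcodes, which is not a working threshold, so the top 5% of scores per library (256 and 382 barcodes) were left out. A class took a cell with a UMI of at least 4 of its 8 markers and at least 2 more markers than any other class; 966 KO and 1366 WT cells stayed ungated. UMIs were summed per library and class and scaled to CPM (UMIs per 1000000). Log2 ratios add 5 CPM to both levels, which understates the ratio of low genes. Intervals are exact Poisson for levels, exact conditional (Clopper-Pearson) for ratios and shares. Classes of 20 or more cells in both libraries were compared; genes needed 50 UMIs over both. Members were named by rank: the 8 highest and 8 lowest ratios, fixed isoform pairs, the 2 highest and lowest per class, and the widest and narrowest spread per complex; 1 member that the ranks name is not reported here. Members singled out in the contrasts of classes, the mitochondrial genes and the regulators were chosen after their values were seen. Of 55357 gene identifiers, 52081 matched GENCODE M21 (GRCm38), which gave coordinates and lengths of the principal transcript; all 100 members matched and 95 had a length. Promoters are from RefSeq (GRCm38.p6). The calculation was tested on simulated data. The members, lists and gates were chosen with earlier results of these data known. Python 3.11.15, numpy 2.4.6, scipy 1.17.1 and pandas 2.3.3 were used.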

Additional observations from a re-analysis of the deposited data

Results flagged for a closer look

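Complex V lay on opposite sides of 0 in a pair of classes with counting intervals that exclude a ratio of 1. In monocytes it was at 4674 CPM in the KO library and 4117 CPM in the WT library, a log2 ratio of 0.18, and in NK cells at 4503 and 4816 CPM, a log2 ratio of -0.097. The difference between the 2 classes was not tested, because there is 1 library per genotype. The monocytes had median depths of 6089 UMIs in the KO library and 4693 UMIs in the WT library, and the NK cells of 7161 and 5727 UMIs.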

How the results depend on the processing

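No paired analysis was possible because there is 1 library per genotype and the labels carry no replicate numbers. Over 14 alternatives, 24 of 29 named members kept the sign of their ratio, and no called value changed sign. The log2 ratio of the summed subunits (0.072) was 0.061 with scaling that leaves out mitochondrial genes and the 50 most abundant others, 0.087 with scaling by the median gene ratio, 0.061 with gated classes weighted alike, 0.053 in male-type cells and 0.048 in cells thinned to 1000 UMIs. Chosen after seeing the data, KO female-type against WT male-type cells gave 0.097, and leaving out cells with UMIs of both types gave 0.081; the male-type values of the lists and of the core and other subunits were also added then. The count of members higher past 1.3-fold (4) was 8 with a pseudocount of 1 CPM, 2 with 20 CPM and 9 for KO female-type against WT male-type cells. The count of lower members (0) was 1 in male-type and 1 in thinned cells. The fold of osteoclast-gated cells over Arg1-low macrophages (2.72 in the KO library, 2.77 in the WT library) was 2.64 and 2.66 without the most abundant genes, 2.86 for the WT library in 11 male-type cells (the KO value of 3.03 rests on 1 male-type osteoclast-gated cell and says nothing of stability; 2.86 also stands for the WT library beside KO female-type cells), and 2.83 and 3.1 under a stricter gate with 12 and 8 such cells. Thinned cells gave 2.65 in the KO library. The causes were not tested. The rank correlation with coding length stayed between -0.78 and -0.69. Depth limits the classes of few cells: B cells, neutrophils, pDC, osteoclast-gated cells and mast cells or basophils hold 10 to 76 cells a library, and the restricted isoforms rest on few UMIs.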

Other observations

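Cycling macrophages, with a UMI of at least 3 of 8 cell cycle genes, had more nuclear subunit RNA than the other macrophages of the same class. In the Arg1-high class the sum was 18108 CPM in 205 cycling and 16243 CPM in 1182 noncycling KO cells, and 16629 CPM in 223 cycling and 15773 CPM in 1938 noncycling WT cells. In the Arg1-low class it was 18080 CPM in 425 cycling and 16783 CPM in 1491 noncycling KO cells, and 17129 CPM in 488 cycling and 16002 CPM in 2583 noncycling WT cells. Complex II had the largest log2 ratio of cycling over noncycling cells of the 5 complexes in both macrophage classes, 0.32 in KO and 0.21 in WT Arg1-high cells and 0.17 and 0.15 in Arg1-low cells. Subunits read from mitochondrial DNA did not share the direction, at 3788 CPM in cycling and 3834 CPM in noncycling KO Arg1-high macrophages and 4754 and 4822 CPM in WT ones. Cycling cells were deeper, with medians of 17493 against 10826 UMIs in KO Arg1-high macrophages and 16165 against 9296 UMIs in WT ones, and the part of depth in this was not tested.

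Mesenchymal cells showed the same direction, with 15446 CPM in 45 cycling and 14372 CPM in 81 noncycling KO cells and 14688 CPM in 58 cycling and 13544 CPM in 135 noncycling WT cells. CD8 T cells had 17727 CPM in 22 cycling and 17002 CPM in 140 noncycling KO cells, and 16976 CPM in 76 cycling and 15620 CPM in 557 noncycling WT cells. Each class holds 1 library per genotype, so these are values without a test.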
